A study of Saccharomyces cerevisiae with 6 samples.

Results

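Oligonucleotide arrays hybridised with a Cy3 and a Cy5 sample each were used by the study to compare myosin II deletion mutants of Saccharomyces cerevisiae with their wild type controls, and the design carried a pair of wild types that had never shared an array. The question addressed here was how those wild types, YJR12 and MGD353-46D, differed from each other in mRNA levels. Of the 12 channels of the series, on 6 arrays, the 6 wild type channels were taken as single-colour measurements, 3 for each strain. Each strain had been labelled in Cy3 in its replicates 1 and 3 and in Cy5 in its replicate 2, and the mutant channels (YJR13 beside YJR12, YJR6 beside MGD353-46D) were kept for comparison only.

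MGD353-46D is a MATα haploid with mutations in TRP1, URA3, LEU2 and HIS3, and its listed markers include ADE+, ARG and cycloheximide resistance. YJR12 is MATα too and was listed as trp1 ura3 leu2-3 his3Δ1 ADE+ ARG+ with cycloheximide resistance. It was a single haploid segregant of a cross between YJR6, the myo1Δ::HIS5 derivative of MGD353-46D, and the MATa laboratory strain BY4741, which brought the his3Δ1, leu2Δ0, met15Δ0 and ura3Δ0 alleles. Neither wild type carried the myo1 deletion. Triplicate cultures had been grown overnight at 26°C in complete synthetic or histidine dropout medium with glucose. The sources used here do not state plainly which strain was grown in which. Both wild types were listed as his3Δ1 without HIS5, the marker of the mutants, and such a genotype does not allow growth in histidine dropout medium.

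A haploid segregant draws each chromosome segment from either parent, so that it differs from that parent by alleles at many loci and can carry the other parent's mitochondrial DNA. Among laboratory yeasts, phosphate acquisition, multidrug efflux, amino acid synthesis and the repeated gene families near chromosome ends are known to vary between strains. The phosphate system answers a shortage of phosphate with transporters and secreted phosphatases under the factor Pho4. The drug efflux system, under the factors Pdr1 and Pdr3, exports toxic compounds through ABC transporters.

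No gene passed an adjusted p of 0.05 between the wild types in the limma fit with dye as a covariate (0% of 6255 genes, smallest adjusted p 0.158, Benjamini-Hochberg). At an unadjusted p of 0.01, the threshold the study used, 226 genes stood out (3.61%), 90 higher in YJR12 (1.44%) and 136 lower (2.17%). At an unadjusted p of 0.05 there were 817 genes (13.1%), 384 higher in YJR12 (6.14%) and 433 lower (6.92%). These counts are the background for every group of genes below in the reported fit. The differences below are ordered by size and by group without a call on any single gene. Values are normalized log2 intensities, and differences are log2 differences of YJR12 minus MGD353-46D with the standard error (SE) of the fit unless said otherwise.

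**Figure D1:**
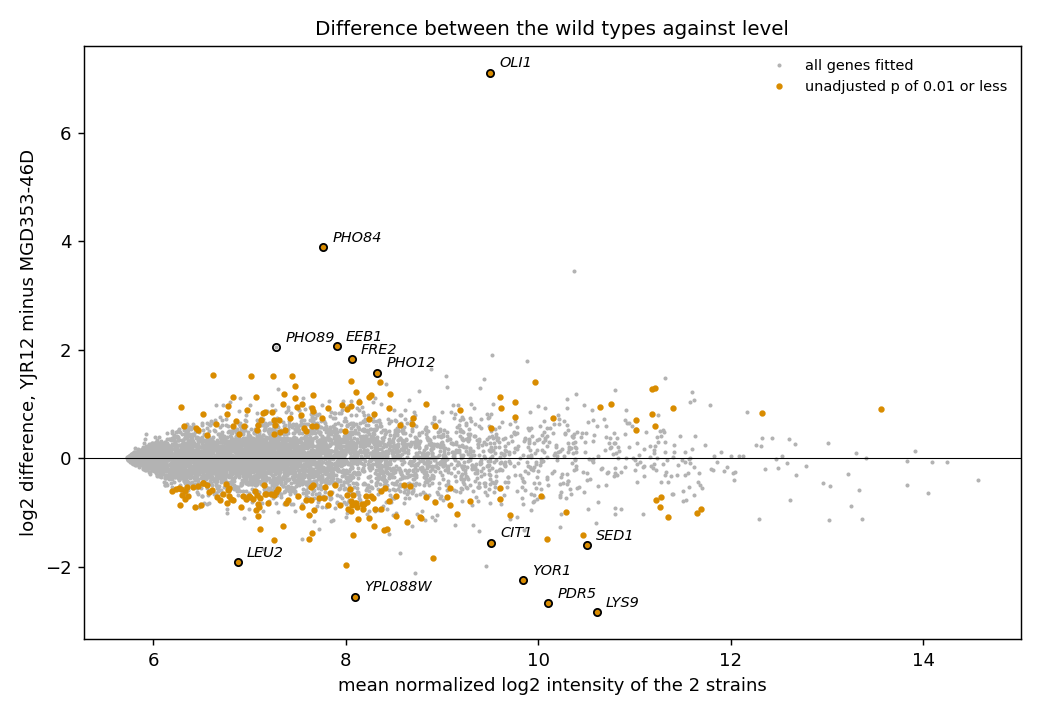
Log2 difference between the wild types (YJR12 minus MGD353-46D, vertical axis) against the mean normalized log2 intensity of both strains (horizontal axis), 1 point for each of 6255 genes, with the 226 genes at an unadjusted p of 0.01 or less in orange and genes of the text circled. Most genes lay close to 0, and OLI1 and PHO84 stood highest on the YJR12 side while LYS9, PDR5, YPL088W and YOR1 stood lowest.

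The channels were not equally good. The median spot had a signal 1.31, 1.44 and 1.22 times its local background in YJR12 replicates 1 to 3, and 2.55, 1.51 and 2.31 times in MGD353-46D, so that both Cy3 channels of YJR12 were dimmer than both of MGD353-46D. Between 5681 and 6166 of 6256 genes exceeded 95% of the negative control spots in each channel. Channels of 1 strain correlated at 0.901 to 0.969 in YJR12 and at 0.873 to 0.956 in MGD353-46D across genes, against 0.865 to 0.937 between strains. YJR12 replicate 3 and MGD353-46D replicate 2 correlated least with their own strain, and the main gene groups are given without both as well. That fit also differed in processing, with quantile normalization over all its channels together and no dye term. Its only Cy5 channel was YJR12 replicate 2, so that dye and strain are partly mixed in it. The alternative with slide as a block compares the strains within the single slide that held both, where YJR12 is represented by its replicate 3 alone and MGD353-46D by its replicate 1 alone. Its p-values hold no replicate spread of those channels, so that only its medians are given for the gene groups. The part of the brightness gap in the differences was not tested.

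The targeted gene and the genotype markers were read first. MYO1, the myosin II heavy chain gene, was at 7.75, 7.72 and 7.81 in YJR12 and at 8.0, 7.13 and 7.88 in MGD353-46D, a difference of 0.09 (SE 0.19, adjusted p = 0.89). It was at background in both mutants (mean normalized log2 intensities 5.81 and 5.80 after the same processing of the mutant channels), as their labels say. TRP1 (difference 0.36, adjusted p = 0.533) and MET17, the gene of the met15 allele (difference -0.20, adjusted p = 0.579), were well above background in both wild types. URA3 and HIS3 were close to background in both, with means of 5.91 and 5.79 in YJR12 and of 6.03 and 5.76 in MGD353-46D.

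LEU2, the β-isopropylmalate dehydrogenase of leucine synthesis, was the genotype marker that set the strains apart. It was at 5.86, 5.86 and 6.04 in YJR12 and at 8.09, 7.93 and 7.49 in MGD353-46D. The strains did not overlap, and the YJR12 signals were only 1.09, 1.04 and 1.1 times the local background, against 5.02, 1.88 and 3.04 times in MGD353-46D. The difference was -1.92 (SE 0.20, adjusted p = 0.165), or 3.78-fold, and the YJR12 level was too close to background for the size to be taken as more than a measured ratio. The mutants showed the same order, with a mean of 6.05 in YJR13 and 9.55 in YJR6. The genotype listed for YJR12 names the leu2-3 allele, and its BY4741 parent carried leu2Δ0. The LEU2 probe read at most 1.1 times background in YJR12, and which allele the strain carried was not tested. RPL28, the ribosomal protein gene in which cycloheximide resistance arises, was at 12.22, 12.81 and 12.75 in YJR12 and at 12.13, 11.48 and 11.62 in MGD353-46D (difference 0.85, SE 0.26, adjusted p = 0.311).

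Both wild types carried the mRNAs of α cells. The 5 α-specific genes (STE3, the a-factor receptor, SAG1, the α-agglutinin, the α-factor genes MF(ALPHA)1 and MF(ALPHA)2, and AFB1) were above background in every wild type channel, and none differed between the strains at an unadjusted p of 0.05. Their differences ran from -0.31 to 0.28. The 7 a-specific genes, among them STE2, the α-factor receptor, stayed between 5.77 and 7.41, and none differed at an unadjusted p of 0.05 either (6 of 7 with median scaling, which put 20.7% of all genes higher in YJR12). YJR12 replicate 3 had the lowest level of the YJR12 channels for 5 of 5 α-specific genes and the highest for 6 of 7 a-specific genes. Its mean over the α-specific genes was 7.90 against 8.83 and 9.24 in the other YJR12 channels, and over the a-specific genes 6.57 against 6.13 and 6.13. All 3 YJR12 channels shared their arrays with the MATa mutant YJR13.

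The clearest single signal of the comparison came from mitochondrial DNA. OLI1 encodes subunit 9 of the mitochondrial ATP synthase and was read by 1 spot. Its raw signal was 47.7, 39.2 and 81 times the local background in YJR12 replicates 1 to 3. In MGD353-46D it was 1.22, 1.04 and 1.21 times, with the spot classed as empty on all 3 arrays. The channels of the strains were far apart, and the fitted difference was the largest of the 6255 genes. The spot was marked poor on the arrays of YJR12 replicates 2 and 3, so that the fit rested on replicate 1 alone in YJR12 (13.08 against 5.99, 5.81 and 5.97), with a difference of 7.11 (SE 0.20, adjusted p = 0.158).

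With no marked spot left out, a setting of which OLI1 was the single gene called, OLI1 was at 13.27, 13.36 and 14.39 in YJR12. The difference was then 7.75 (SE 0.31, adjusted p = 0.013), or 215-fold against channels near background. Over the alternatives that fitted OLI1 the difference ran from 5.92 to 9.58 and the adjusted p from 0.00137 to 0.577. The mutants followed their arrays. OLI1 was 26.5, 217 and 147 times background in YJR13 and 1.18, 1.12 and 1.06 times in YJR6, the mutant made in MGD353-46D.

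Of the 23 mitochondrial genes and reading frames on the array, a list added after the data had been seen, 15, 13 and 12 exceeded the negative controls in YJR12 replicates 1 to 3, against 7, 9 and 10 in MGD353-46D. Most of these levels were low. COB, cytochrome b, was at 6.61, 6.41 and 7.26 in YJR12 and at 5.83, 5.83 and 5.81 in MGD353-46D (difference 0.94, SE 0.23, adjusted p = 0.271). The COX1 intron reading frame AI4 was above background in all YJR12 channels and in none of MGD353-46D, at least 1.34-fold higher (adjusted p = 0.295), and AI1 likewise at least 1.27-fold higher (adjusted p = 0.378). COX2, COX3, ATP6 and VAR1 were within 1.15 times the background in all 6 wild type channels, so that no difference in them was detectable on this array. As background, the amplification kit primes from poly(A) tails, which yeast mitochondrial mRNAs lack. The median difference of the 23 was 0.08, against 0.01 for all genes (1.09 and 0.13 with median scaling).

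**Figure D2:**
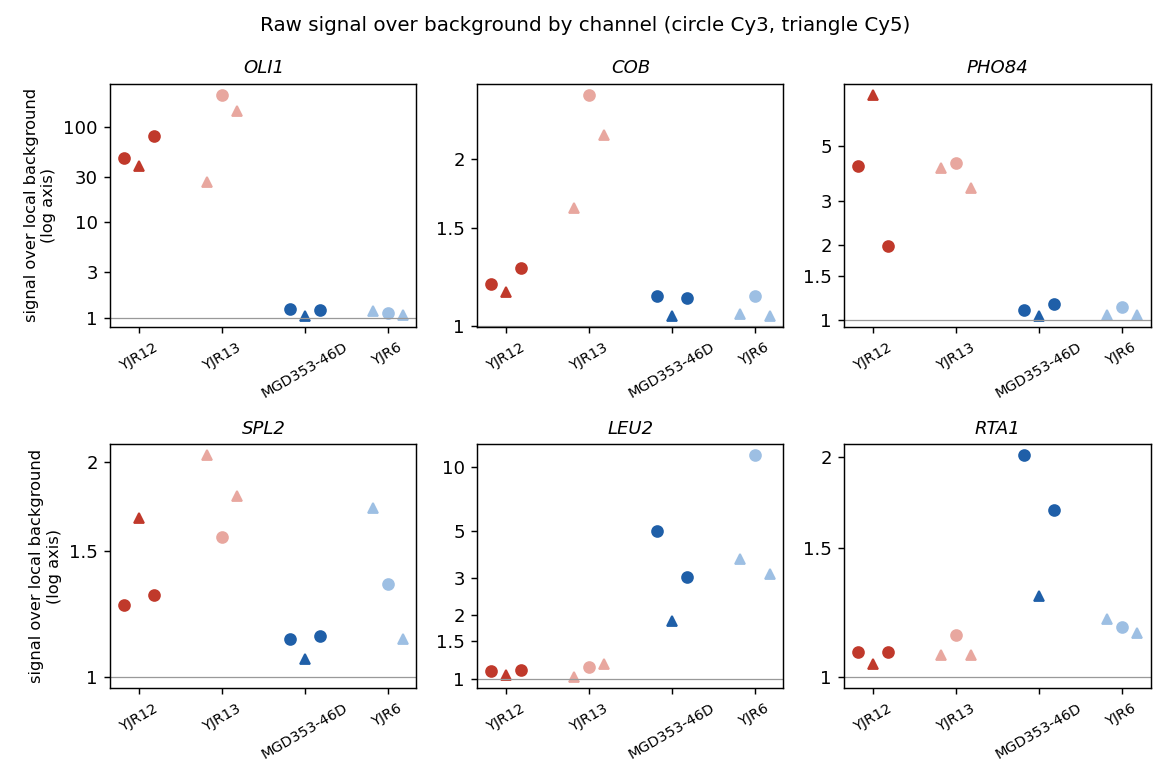
Raw signal over local background (log axis) of 6 genes in all 12 channels, with 3 channels for each of YJR12, YJR13, MGD353-46D and YJR6 and a line at 1. OLI1 and PHO84 stood well above the line in the YJR12 and YJR13 channels and close to it in the others, and LEU2 the other way round, while the low RTA1 and SPL2 signals differed less between the mutants.

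The phosphate response genes were the largest group on the YJR12 side. Of 22 measured, 11 were higher in YJR12 at an unadjusted p of 0.05 and none lower, and 4 reached an unadjusted p of 0.01. Their median difference was 0.57, against 0.01 for all genes. Without the channels that stood apart (YJR12 replicate 3 and MGD353-46D replicate 2) 11 were higher and 1 lower, with a median of 0.54. With slide as a block the median was 0.43. With median scaling 14 were higher (median 0.86), where 20.7% of all genes were higher and the median of all genes was 0.13.

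PHO84, the high-affinity phosphate transporter, was at 9.55, 10.97 and 8.61 in YJR12. In MGD353-46D it was at 5.78, 5.81 and 5.88, at 1.1, 1.04 and 1.16 times its local background. The strains did not overlap, and the difference was 3.89 (SE 0.48, adjusted p = 0.194), or 14.8-fold, against a strain near background. PHO84 was set apart in the mutants too, with a mean of 9.37 in YJR13 and 5.84 in YJR6. In the separate-channel model over all 12 channels PHO84 was 1 of 3 genes past an adjusted p of 0.05 between the wild types (difference 3.89, adjusted p = 0.00476), and the mutants differed by 3.51 (adjusted p = 0.00252). The difference between these contrasts was 0.38 (adjusted p = 0.916). Over all alternatives the wild type difference of PHO84 ran from 2.51 to 7.00 and its adjusted p from 0.00137 to 0.577.

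The other transporter of high affinity, the sodium-coupled PHO89, was at 7.47, 8.08 and 9.37 in YJR12 and at 6.08, 6.20 and 6.48 in MGD353-46D (difference 2.05, SE 0.52, adjusted p = 0.273). SPL2, which restrains low-affinity phosphate uptake, was at 6.92, 7.84 and 7.42 against 5.83, 5.91 and 5.85 (difference 1.53, SE 0.21, adjusted p = 0.194). Every MGD353-46D channel lay below every YJR12 channel for both genes, and without the channels that stood apart the PHO89 difference was 1.5. Among the secreted acid phosphatases PHO12 was at 8.84, 9.71 and 8.81 in YJR12 and at 7.56, 7.59 and 7.47 in MGD353-46D, a difference of 1.58 (SE 0.20, adjusted p = 0.194). PHO11, nearly identical to PHO12 in sequence and possibly read by the same RNA, differed by 1.03 (SE 0.27). The acid phosphatase gene PHO3, counted in the list of thiamine and vitamin B6 genes, differed by 1.27 (SE 0.34). PHO5, the main phosphate-repressible enzyme, was low in both strains and differed by 0.29 (SE 0.11, adjusted p = 0.385).

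The vacuolar polyphosphate genes VTC3 (1.11, SE 0.28) and VTC4 (0.70, SE 0.26) and the phosphate-responsive PHM6 (1.52, SE 0.30) were higher in YJR12 at an unadjusted p of 0.05. Of the regulators, PHO80, the cyclin that holds Pho4 inactive, differed by 0.48 (SE 0.14, adjusted p = 0.289) and the inhibitor gene PHO81 by 0.03 (SE 0.24, adjusted p = 0.976). PHO4 differed by -0.38 (SE 0.19, adjusted p = 0.482). In the fit without the channels that stood apart PHO4 differed by -0.67 (unadjusted p = 0.0169).

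**Figure D3:**
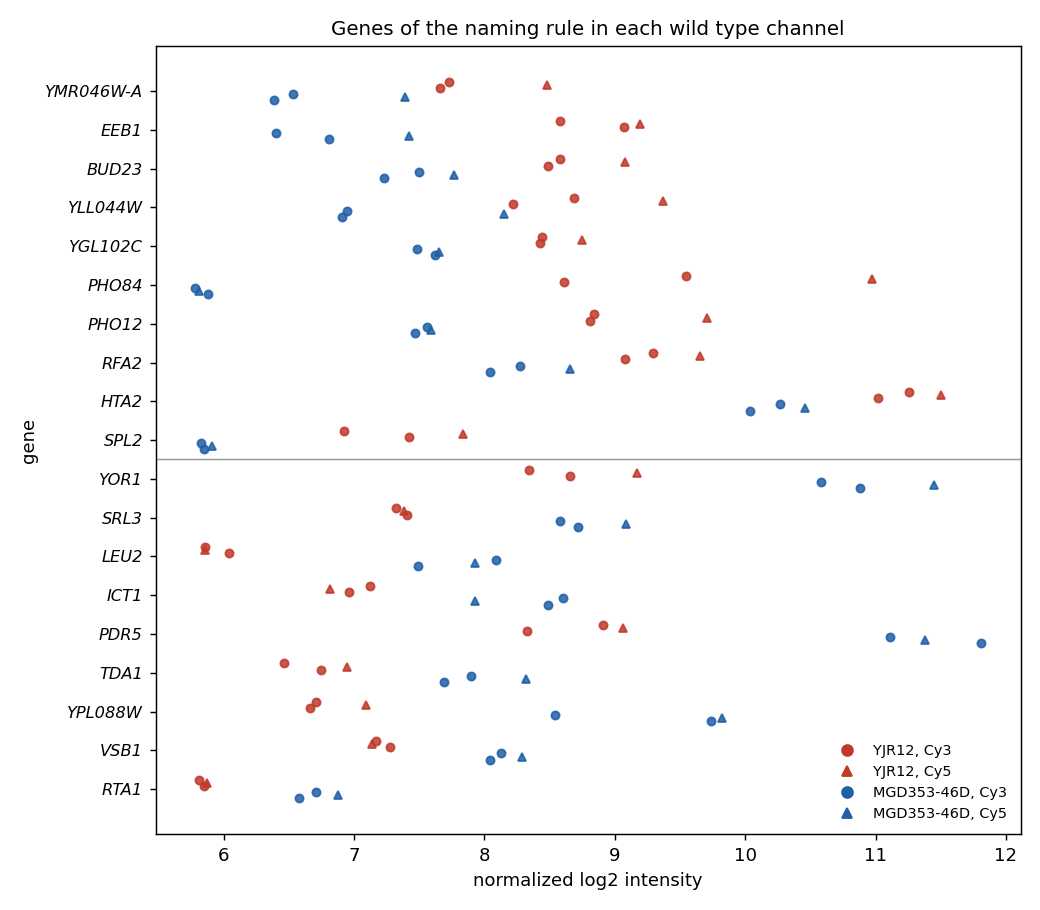
Normalized log2 intensity (horizontal axis) in each of the 6 wild type channels for the 10 genes of smallest p higher in YJR12 (above the line) and for 9 of the 10 higher in MGD353-46D (below the line) whose strains did not overlap within either dye. Red points are YJR12 and blue points MGD353-46D, circles Cy3 and triangles Cy5. The order without overlap was part of the choice of these genes, and PHO84 and PDR5 show the widest gaps.

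By a fixed rule 20 genes were named, 10 of smallest p on each side among genes whose strains did not overlap within Cy3 or within Cy5. That order alone was met by 905 of 6200 genes with the YJR12 channels higher (14.6%) and by 853 with them lower (13.8%), so it is part of the choice and no result. Besides PHO84, PHO12 and SPL2, the YJR12 side held EEB1, which makes ethyl esters of medium-chain fatty acids. EEB1 was at 8.58, 9.19 and 9.07 against 6.40, 7.42 and 6.81 in MGD353-46D (difference 2.07, SE 0.22, adjusted p = 0.165). BUD23, a methyltransferase of small-subunit ribosomal RNA, differed by 1.22 (SE 0.13, adjusted p = 0.165). RFA2, a subunit of the single-strand binding replication protein A, differed by 1.01 (SE 0.13, adjusted p = 0.194). HTA2, histone H2A, was at 11.26, 11.50 and 11.02 against 10.27, 10.46 and 10.04 (difference 1.00, SE 0.13, adjusted p = 0.194). Between the mutants (YJR13 minus YJR6) EEB1 differed by 0.25, BUD23 by 0.20, RFA2 by 0.24 and HTA2 by 0.85. The last 3 named genes, YMR046W-A (1.18), YLL044W (1.42) and YGL102C (0.96), are reading frames absent from the RefSeq table. The systematic names of YLL044W and YGL102C put them next to the ribosomal protein genes RPL8B and RPL28. RPL8B differed by 0.31 (SE 0.28, adjusted p = 0.688) and RPL28 by 0.85 (SE 0.26, adjusted p = 0.311).

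On the MGD353-46D side the list opened with YOR1, the ABC transporter of oligomycin resistance and the gene of smallest p in the whole fit. It was at 8.34, 9.17 and 8.66 in YJR12 and at 10.58, 11.45 and 10.88 in MGD353-46D. Every MGD353-46D channel lay above every YJR12 channel, by 2.25 on average (SE 0.15, adjusted p = 0.158), or 4.75-fold. PDR5, the major multidrug exporter of the plasma membrane, was at 8.91, 9.06 and 8.33 in YJR12 and at 11.11, 11.38 and 11.81 in MGD353-46D. It was 6.36-fold higher in MGD353-46D (difference -2.67, SE 0.28, adjusted p = 0.165). YPL088W, an uncharacterised reading frame with the sequence of an aryl alcohol dehydrogenase, was at 6.71, 7.09 and 6.66 against 8.54, 9.82 and 9.74 (difference -2.55, SE 0.33, adjusted p = 0.194). The others included SRL3 (-1.42), ICT1, a lysophosphatidic acid acyltransferase (-1.37), the kinase gene TDA1 (-1.25), VSB1 (-0.96), RTA1 (-0.87) and LEU2. Not all of these kept that size between the mutants. There (YJR13 minus YJR6) YPL088W differed by -1.20, TDA1 by -0.79, VSB1 by -0.13, ICT1 by -0.06 and SRL3 by 0.27.

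As a group, the drug efflux genes were lower in YJR12 in 7 of 23 at an unadjusted p of 0.05, 5 of them at 0.01, and none was higher. The median difference was -0.51. Without the channels that stood apart 9 were lower and none higher, with a median of -0.44. With slide as a block the median was -0.25, and with median scaling 9 were lower and 2 higher (median -0.62). RTA1, a membrane protein tied to drug resistance, was at 5.81, 5.87 and 5.85 in YJR12, above the negative controls in 1 of 3 channels, and at 6.71, 6.88 and 6.58 in MGD353-46D. QDR2 (-1.25, SE 0.23), SNQ2 (-1.30, SE 0.32), the sphingoid base exporter gene RSB1 (-1.0, SE 0.26) and the phosphatidylinositol transfer protein gene PDR16 (-0.72, SE 0.23) completed the 7. Several of these are targets of Pdr1 and Pdr3, whose own mRNAs differed by 0.05 (SE 0.22, adjusted p = 0.946) for PDR1 and -0.46 (SE 0.18, adjusted p = 0.383) for PDR3. Between the mutants PDR5 was again lower in the YJR12-related strain, by 2.41 on the log2 scale (YJR13 mean 8.59), YOR1 by 1.05 and RTA1 by 0.28.

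**Figure D4:**
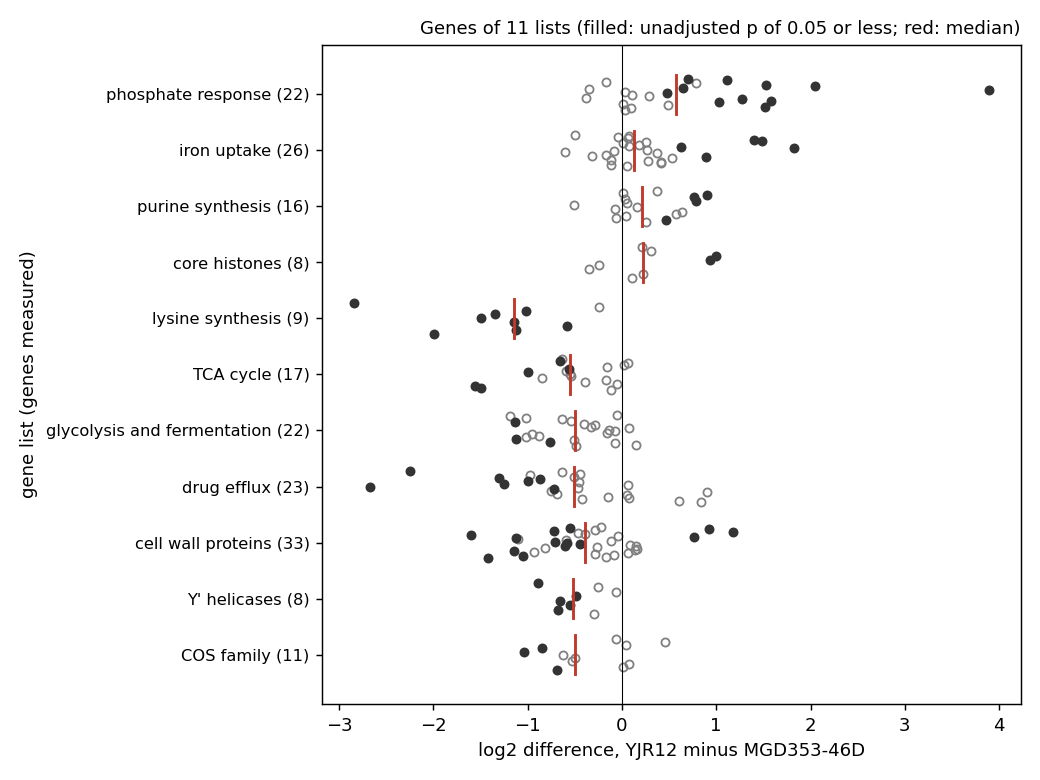
Log2 difference (YJR12 minus MGD353-46D, horizontal axis) of every measured gene of 11 lists, with genes at an unadjusted p of 0.05 or less filled and the list median as a red line. The phosphate response list lay to the right of 0 with a median of 0.57, and the lysine synthesis list to the left with a median of -1.14.

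Lysine synthesis genes lay on the MGD353-46D side throughout. All 9 had a negative difference, 8 of them at an unadjusted p of 0.05 and 2 at 0.01, with a median of -1.14. With slide as a block the median was -0.72, and without the channels that stood apart 8 were lower at an unadjusted p of 0.05 (median -1.43). LYS9, the saccharopine dehydrogenase that forms saccharopine, was at 8.67, 9.66 and 9.24 in YJR12 and at 11.20, 12.09 and 12.81 in MGD353-46D (difference -2.84, SE 0.47, adjusted p = 0.211). LYS1, which carries out the last step, was at 8.15, 8.54 and 8.70 against 9.35, 10.64 and 11.39 (difference -1.99, SE 0.56, adjusted p = 0.289). The strains did not overlap for either gene. The first enzymes, the homocitrate synthases LYS20 (-1.49, SE 0.37) and LYS21 (-1.34, SE 0.36), whose sequences are alike, were lower in YJR12 too. So were LYS4, LYS12, LYS2 and the transcriptional activator gene LYS14 (-0.58, SE 0.17), while LYS5, which activates Lys2, differed by -0.24 (SE 0.18, adjusted p = 0.643).

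The lysine genes stood the other way round in the mutants. The median difference of YJR13 minus YJR6 was 0.57, and LYS9 was 1.12 higher in YJR13. For LYS9 the wild type contrast differed from the mutant contrast by -3.68 in the separate-channel model (adjusted p = 0.224), so that the reversal did not pass the adjusted test.

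Genes of the citric acid cycle were lower in YJR12 in 5 of 17 at an unadjusted p of 0.05 and in 3 at 0.01, and none was higher (median -0.55). Leaving out the channels that stood apart gave 7 lower and 1 higher (median -0.34). CIT1, the mitochondrial citrate synthase, was at 8.52, 8.80 and 8.88 in YJR12 and at 9.88, 10.74 and 10.25 in MGD353-46D (difference -1.56, SE 0.21, adjusted p = 0.194). LPD1, the dihydrolipoamide dehydrogenase shared by several complexes, differed by -0.99 (SE 0.17), SDH3 by -0.66 (SE 0.21) and LSC2 by -0.56 (SE 0.18). Between the mutants the list had a median of 0.05. In the nuclear-encoded respiratory chain 3 of 33 genes were lower in YJR12 at an unadjusted p of 0.05 and none higher, a share near the 6.92% of all genes, and the list median of -0.08 turned to 0.15 with slide as a block. ATP2, the β subunit of the ATP synthase, was among the 3 (difference -0.75, SE 0.11, adjusted p = 0.211). Of 22 glycolytic and fermentation genes, 20 had a negative difference (median -0.50), but only ENO1, FBA1 and PGK1 reached an unadjusted p of 0.05. The count was 11 with median scaling and 5, with 1 gene higher, without the channels that stood apart. The median was -0.48 in Cy3, -0.07 in Cy5 and -0.75 with slide as a block.

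Among 33 cell wall genes 11 were lower in YJR12 and 3 higher at an unadjusted p of 0.05, with a median of -0.39. Without the channels that stood apart the counts were 16 and 3, and with median scaling 16 and 0 (median -0.71). The median was -0.36 with slide as a block. KRE6, needed for β-1,6-glucan, was at 8.44, 8.52 and 8.45 in YJR12 and at 9.23, 9.25 and 9.08 in MGD353-46D, the tightest gap of the group (difference -0.71, SE 0.11, adjusted p = 0.211). SED1, an abundant wall glycoprotein, was at 9.70, 10.82 and 8.61 against 11.13, 11.65 and 11.16 (difference -1.60, SE 0.39, adjusted p = 0.271, and -1.12 without the channels that stood apart). BGL2, an endoglucanase of the wall, differed by -1.42 (SE 0.32), PST1 by -1.12 (SE 0.22), CCW14 by -1.05 (SE 0.26) and FKS1, the β-1,3-glucan synthase subunit, by -0.60 (SE 0.14). The 3 genes higher in YJR12 were the glucanase-like SUN4 (1.18, SE 0.45) and SCW10 (0.76, SE 0.25) and the transglycosylase gene UTR2 (0.92, SE 0.29). The daughter cell separation genes CTS1 (-0.73, SE 0.23), DSE4 (-0.52, SE 0.16) and PRY3 (-0.54, SE 0.14) were lower in YJR12 at an unadjusted p of 0.05 and SUN4 higher, among 13 measured, with a list median of -0.49 in Cy3 and 0.30 in Cy5.

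The families near chromosome ends gave smaller differences. All 8 Y′ helicase genes had a negative difference (median -0.52), with 5 at an unadjusted p of 0.05 (8 with median scaling). With slide as a block their median was -0.45. YRF1-8 was at 10.38, 11.46 and 10.64 in YJR12 and at 11.54, 12.14 and 11.48 in MGD353-46D (difference -0.89, SE 0.14, adjusted p = 0.211). Of 11 COS genes 3 were lower, COS5 by 1.04 (SE 0.15, adjusted p = 0.211), COS6 by 0.85 (SE 0.21) and COS1 by 0.69 (SE 0.27) on the log2 scale, and the list median went from -0.50 to -0.13 without the channels that stood apart, to -0.19 with slide as a block and to -0.91 with median scaling. Copies of these repeats are nearly identical, so that the probes cannot be taken as separate genes. The 8 flocculins and 24 seripauperins held no gene at an unadjusted p of 0.05. The asparaginase II genes ASP3-1 to ASP3-4, identical copies on the right arm of chromosome XII, were near background in both wild types, with levels between 5.87 and 6.67. In the reported fit only ASP3-4 reached an unadjusted p of 0.05 (0.33, SE 0.11, adjusted p = 0.339).

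Other groups held a few genes higher in YJR12. Iron uptake genes were higher in YJR12 in 5 of 26 at an unadjusted p of 0.05 and in none lower (median 0.13, but -0.06 with median scaling and -0.16 with slide as a block). The list median was 0.75 in Cy5 and 0.01 in Cy3. There were 8 higher and 2 lower without the channels that stood apart, and 3 and 3 with median scaling. FRE2, a ferric reductase, was at 8.73, 10.44 and 7.77 against 6.37, 7.93 and 7.15 (difference 1.83, SE 0.40, adjusted p = 0.246), where YJR12 replicate 3 lay below the Cy5 channel of MGD353-46D, and the difference was 2.75 without the channels that stood apart. HMX1, a heme oxygenase, differed by 1.40 (SE 0.34), the permease gene FTR1 by 1.49 (SE 0.51) and its partner oxidase FET3 by 0.89 (SE 0.30). Of 16 purine synthesis genes 4 were higher in YJR12 (median 0.21, but -0.15 with median scaling, 0.56 with slide as a block and 0.59 without the channels that stood apart, where 2 were higher), led by the IMP dehydrogenases IMD4 (0.90, SE 0.16) and IMD3 (0.77, SE 0.15), which are close in sequence. Of 8 core histone genes 2 were higher (median 0.22, but -0.02 without the channels that stood apart, -0.19 with median scaling and -0.40 with slide as a block). HTA1, the other H2A gene, differed by 0.93 (SE 0.23), while the H2B genes HTB1 (0.31, SE 0.30) and HTB2 (0.21, SE 0.33) did not reach an unadjusted p of 0.05. PCL1, a G1 cyclin, was 0.98 higher (SE 0.19) and CLB1, a mitotic cyclin, 1.18 higher (SE 0.27), 2 of 22 cell cycle genes, a share near the 6.14% of all genes, with a list median of 0.05.

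The list medians of ribosomal protein and ribosome biogenesis genes differed between the strains mainly in Cy5. Of 81 large subunit genes 9 were higher in YJR12 at an unadjusted p of 0.05 and 1 lower, and of 56 small subunit genes 5 were higher and none lower. RPS2 was at 13.73, 14.29 and 14.02 in YJR12 and at 13.12, 13.24 and 12.97 in MGD353-46D (difference 0.91, SE 0.14, adjusted p = 0.211), higher in both dyes. The order without overlap in both dyes, YJR12 higher, was met by 12 of 81 large subunit, 6 of 56 small subunit and 13 of 56 biogenesis genes. Over all genes it was met by 14.6%, so that the counts of both ribosomal protein lists were near or below that share. The median of the large subunit list was 0.87 in the Cy5 pair of channels and -0.04 in the Cy3 pairs, and that of the small subunit list 0.82 and -0.21. Of 56 ribosome biogenesis factors 9 were higher and none lower, with a median of 0.92 in Cy5 and 0.04 in Cy3. The Cy5 value rests on MGD353-46D replicate 2, which stood apart, and without both such channels the medians were 0.03, -0.08 and 0.26. With slide as a block all 3 medians turned, to -0.36, -0.49 and -0.21.

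Stress genes showed where those channels differed. The median level of 43 general stress genes was 9.79 in MGD353-46D replicate 2, against 7.35 and 7.53 in its other replicates and 7.40, 7.90 and 8.28 in YJR12. Trehalose and glycogen genes had a median of 9.76 in that channel, against 7.20 to 7.99 in the other 5. GPH1, glycogen phosphorylase, was at 13.26 there and between 6.86 and 8.36 elsewhere. Chaperone genes had a median of 11.24 in YJR12 replicate 3, where SSA4, an inducible Hsp70, was at 12.74, against 7.98 and 8.69 in the other YJR12 channels. SSA4 was chosen after its values were seen. In the reported fit 3 of 43 general stress genes, 2 of 20 trehalose and glycogen genes and 1 of 27 chaperones reached an unadjusted p of 0.05. Each was lower in YJR12, against 6.92% of all genes lower. Yet 21 of 27 chaperones had a positive difference (median 0.49). With slide as a block, where YJR12 is replicate 3 and MGD353-46D replicate 1, the chaperone median was 1.96 and the general stress median 0.87. Without the channels that stood apart 6 chaperones were higher and 2 lower (median 0.15), and 5 general stress genes were higher and 1 lower. All genes gave 8.78% higher and 9.45% lower in that fit. The trehalose and glycogen median went from -0.43 to -0.06.

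**Figure D5:**
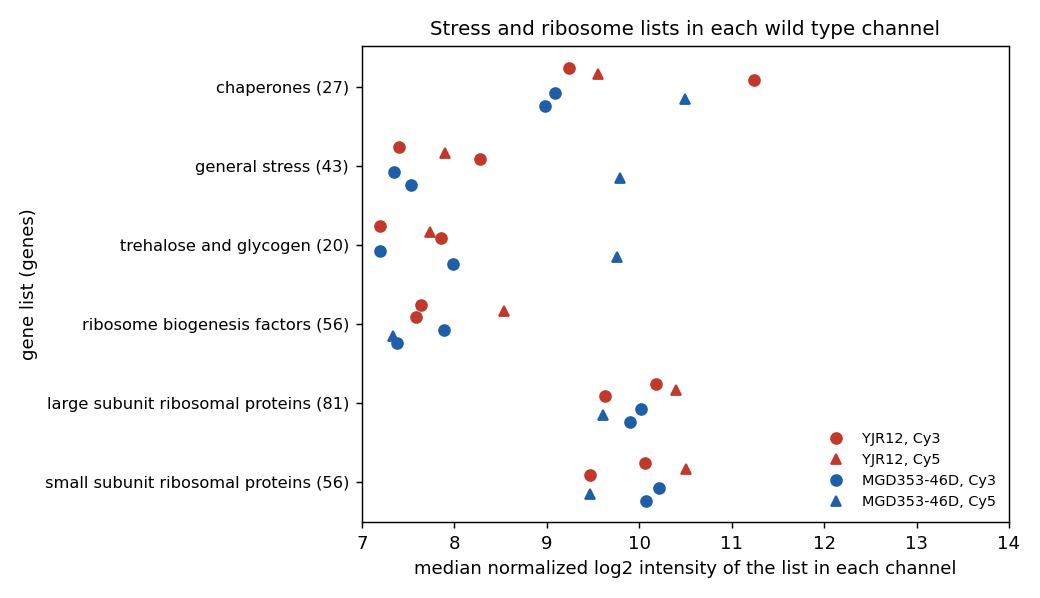
Median normalized log2 intensity (horizontal axis) of 6 gene lists in each wild type channel, with YJR12 in red, MGD353-46D in blue, Cy3 as circles and Cy5 as triangles. MGD353-46D replicate 2 is the triangle at 9.79 and 9.76 in the general stress and the trehalose and glycogen lists, and YJR12 replicate 3 the circle at 11.24 in the chaperone list.

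Over all genes the differences of the Cy3 and Cy5 channels had little in common. The differences in Cy3 (2 channels against 2) and in Cy5 (1 against 1) correlated at 0.0737 across 6170 genes, which are not independent replicates, and had the same sign in 54.7% of them. The difference was 3.25 in Cy3 and 5.16 in Cy5 for PHO84, -2.23 and -2.28 for YOR1, and -2.84 and -2.32 for PDR5, genes whose rule asked for the same order in both dyes. It was 1.10 and 2.36 for PHM6 and -1.67 and -0.07 for PGK1. One slide held an array of each strain, with YJR12 replicate 3 and MGD353-46D replicate 1, both in Cy3. Within it the difference was 2.83 for PHO84, -1.92 for YOR1, -2.79 for PDR5, -1.96 for LYS9 and -2.05 for LEU2. For PHO84, YOR1, PDR5 and LEU2 the naming rule had already fixed this direction, since it asked for no overlap in Cy3.

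No chromosome stood out as a whole. The median difference lay between -0.03 and 0.04 on each of the nuclear chromosomes, and was 0.12 over the 19 mitochondrial genes that the RefSeq table places.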

How the data were processed

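The authors quantified scanned Agilent 2-channel yeast arrays with ImaGene 6.0.0, as the headers state, and deposited, per channel, raw spot intensity with local background and flags. Of these deposited intensity columns Signal Mean and Background Median were used. The deposited log2 Cy5/Cy3 ratios were not used, since they compare each wild type with its mutant only.

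Spots flagged poor (32 to 192 of 10807 per array) and 544 control spots were left out. After normexp background correction (offset 50), log2 values were quantile normalized within dye over the wild type channels, and the 10263 gene spots were averaged to 6256 genes. Of these, 5756 matched the RefSeq table (R64) and the others kept the array's name. limma 3.58.1 in R 4.3.3 fitted strain with dye as covariate (3 residual and 1.98 prior degrees of freedom), with Benjamini-Hochberg adjustment over 6255 genes at 0.05. A gene counted as above background where a spot's signal over background exceeded the 95th percentile of the channel's 89 negative controls. "At least" folds set a channel's lowest level among genes above background in place of a lower value. Mutant channels were processed likewise on their own. The number of arrays limits the precision.

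Named genes were the 10 with the smallest p in each direction (by rule, those past the adjusted threshold first, of which there were none) whose strains did not overlap within either dye, all genotype, asparaginase and mating type genes, and up to 4 genes of smallest p of each other list as described (further members are given to complete a list). Of 50 gene lists and 1 added, those outside the report are in the closing section. Some genes are not reported here. The members and lists were chosen with earlier results of these data known. The script's model was tested on simulated data. Alternatives were other background corrections, normalizations, flags, filters, weights, blocks and models, and each channel left out in turn.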

Additional observations from a re-analysis of the deposited data

Results flagged for a closer look

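The OLI1 spot was marked poor on the arrays of YJR12 replicates 2 and 3 and so stood outside the reported fit, yet its signal there was 39.2 and 81 times the local background, against at most 1.22 times in MGD353-46D.

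The 4 ASP3 genes differed between the contrasts of the wild types and of the mutants in the separate-channel model over all 12 channels. There the wild type difference (YJR12 minus MGD353-46D) was lower than the mutant difference (YJR13 minus YJR6) by 4.99 for ASP3-1 (adjusted p = 4.21e-05), by 4.83 for ASP3-2 (adjusted p = 0.000678), by 4.78 for ASP3-3 (adjusted p = 5.51e-05) and by 4.79 for ASP3-4 (adjusted p = 4.21e-05). As signed values these were -4.99, -4.83, -4.78 and -4.79. The wild type differences themselves were 0.65, 0.81, 0.85 and 0.85 in that model, larger than in the reported fit. Their unadjusted p was 0.0163, 0.0267, 0.00422 and 0.00211, and their adjusted p ran from 0.266 to 0.466. In the quantile-normalized values the mean levels were near 12 in YJR13 (11.96 to 12.09) and between 6.02 and 6.44 in both wild types, and these copies are identical, so they count as 1 observation.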

How the results depend on the processing

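All 20 genes named by the rule kept their direction in every alternative that fitted them. Their choice by small p and by no overlap within Cy3 or within Cy5 largely fixed that direction, so it is no test of them. The count at an adjusted p of 0.05 was 0 as reported and 0 without any 1 channel, but 7 with plain background subtraction, 19 with a normexp offset of 0, 11 with median scaling, 3 in the separate-channel model, 1 without the dye term, 6 among genes above the median intensity, 1 with all flagged spots left out, 1 with none left out, 1 without the 2 channels that stood apart (added after seeing the data) and 341 with array quality weights, which gave YJR12 replicate 1 a weight of 7.7 and YJR12 replicate 3 one of 0.329. The 226 genes at an unadjusted p of 0.01 became 661 with median scaling (72.8% higher in YJR12, against 39.8% as reported), 109 above the median intensity, 753 with weights, 138 with slide as a block (57.2% higher), 369 of 10258 spots tested singly, 389 without the 2 channels, and 83 to 190 without 1 channel, lowest without MGD353-46D replicate 3 (128 without YJR12 replicate 1, 122 without MGD353-46D replicate 1). The count with slide as a block rests on 1 channel of each strain. Median scaling moved the median of all genes to 0.13, the largest nuclear chromosome median to 0.20, URA3 to 0.76 and STE2 to 0.83. The large and small subunit ribosomal list medians turned to -0.23 and -0.37 with median scaling and to -0.36 and -0.49 with slide as a block. They turned to -0.04 and -0.24 in Cy3 alone. Leaving out replicate 2 of either strain gives that same fit, since the dye term absorbs the other Cy5 channel. The small subunit median also turned to -0.08 without the 2 channels. Without YJR12 replicate 3 the large and small subunit medians were 0.41 and 0.33. Slide as a block turned ribosome biogenesis to -0.21 and iron uptake to -0.16, and median scaling turned iron uptake to -0.06 and purine synthesis to -0.15. At 1.5 times background, 2814, 3083 and 2095 genes remained in YJR12 replicates 1 to 3 and 3394 in MGD353-46D replicate 2. The cause of these shifts was not tested. No paired analysis was possible because the labels number the arrays 1 to 6 and the replicate numbers used here, given in accession order, pair nothing. Levels under about 6 lie near background, where folds are understated.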

Other observations

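The counts of the further gene lists at an unadjusted p of 0.05 stand against a background of 6.14% of genes higher and 6.92% lower in YJR12. The sodium pump genes ENA1 and ENA2, which are nearly identical, were higher in YJR12, 2 of 10 in their list (ENA1 by 1.31, SE 0.47, adjusted p = 0.356, and ENA2 by 1.46, SE 0.36, adjusted p = 0.273), with YJR12 replicate 3 highest at 10.79 and 10.83. Without the channels that stood apart ENA1 differed by 0.62 and ENA2 by 1.13. In the mutants both were lower in YJR13 than in YJR6, by 1.05 and 1.10 on the log2 scale. The copper transporter gene CTR1 was at 7.27, 8.81 and 7.71 in YJR12 and at 6.66, 7.78 and 6.98 in MGD353-46D (difference 0.79, SE 0.19, adjusted p = 0.271). The glucose transporter gene HXT3 was lower in YJR12 (10.87, 11.17 and 10.37 against 11.68, 12.29 and 11.69, difference -1.08, SE 0.16, adjusted p = 0.211), whereas HXT2 was higher (1.79, SE 0.67, adjusted p = 0.369), with 11.87 in YJR12 replicate 3 (2.59 in Cy3 and 0.19 in Cy5, and 1.5 without the channels that stood apart).

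Of 7 histidine synthesis genes HIS4 (-0.63), HIS2 (-0.47) and HIS5 (-0.72) were lower in YJR12 at an unadjusted p of 0.05. In pyrimidine synthesis URA5 was higher in YJR12 (1.29, SE 0.27, adjusted p = 0.245) and URA8, a CTP synthase, lower (-1.09, SE 0.16, adjusted p = 0.211). Of 18 Ras and protein kinase A genes 3 were lower in YJR12, among them the regulatory subunit gene BCY1 (-0.84, SE 0.17) and the catalytic subunit gene TPK2 (-0.60, SE 0.23). In the cell integrity list WSC4 (0.70) and WSC2 (0.37) were higher, and the MAP kinase gene SLT2 (-0.71, SE 0.24, adjusted p = 0.33) and the sensor gene MID2 (-0.45) lower, of 18 measured. The ergosterol list had ERG7 higher (0.68) and ERG9 (-0.55), ERG26 (-0.95) and ERG28 (-0.54) lower, of 26.

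The arginine synthesis list (12 genes), the nitrogen catabolite repression list (25 genes) and the galactose, maltose and sucrose list (19 genes) held no gene at an unadjusted p of 0.05, with medians of -0.04, -0.21 and 0.01. With median scaling, which put 20.7% of all genes higher in YJR12, 11 of the 19 galactose, maltose and sucrose genes, 24 of 27 meiosis genes, 9 of 19 hexose transporter genes and 9 of 24 thiamine and vitamin B6 genes were higher. The other lists had 1 to 3 such genes each: pheromone response 1 of 23, leucine and branched-chain synthesis 3 of 17, sulfate assimilation 3 of 33, aromatic amino acids 1 of 15, amino acid permeases 1 of 21, zinc response 1 of 15, thiamine and vitamin B6 2 of 24, biotin 2 of 6, gluconeogenesis 2 of 17, aerobic and hypoxic genes 2 of 30, oxidative stress 3 of 31, copper uptake 1 of 9, aryl-alcohol dehydrogenases 2 of 6 and meiosis 1 of 27.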
